A study of Mus with 8 samples.

Results

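The NRF2 oxidative stress response was followed through 10 genes in mouse bone marrow monocytes grown inside hydrogels. The 10 genes, taken as a list of Ensembl IDs out of 17640 in the count table, are Nfe2l2, Keap1, Sqstm1, Slc7a11, Gclc, Gclm, Txnrd1, Srxn1, Nqo1 and Hmox1. The rule of the list uses no measured value, but its members were chosen with earlier results of these data known. All 10 were present and all 10 passed the low-count filter, which kept 14785 IDs. Libraries fell into 4 groups of 2: Jak2 V617F cells in elastic gel, Jak2 V617F cells in viscous gel, control cells in elastic gel and control cells in viscous gel. The Jak2 V617F mice carried an endogenous knock-in of the mutation together with Vav-iCre, a Cre transgene that is active in blood-forming cells, and the control mice carried Vav-iCre alone. All animals were C57BL/6; the labels used here state no age. In every group the medium held PGE2 at 100 ng/mL, IL4 at 200 ng/mL and GM-CSF at 100 ng/mL, and day 3 was the time point. The design asks what gel elasticity does to these cells and whether the mutation, a driver of myeloproliferative neoplasm, alters it. Titles name the elastic gel NbTz and the viscous gel VLVG; any further property in which NbTz and VLVG differ is confounded with elasticity and cannot be told apart from it.

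NRF2, the protein encoded by Nfe2l2, is a transcription factor that switches on genes for antioxidant defence. In resting cells KEAP1 holds NRF2 and directs it to degradation; oxidants and electrophiles modify KEAP1, and NRF2 then accumulates and binds antioxidant response elements together with small MAF proteins. Control is exerted largely on the protein, so transcripts of Nfe2l2 do not report NRF2 activity by themselves. The targets followed here supply cystine (Slc7a11), make glutathione (Gclc, Gclm), maintain the thioredoxin and peroxiredoxin systems (Txnrd1, Srxn1), reduce quinones (Nqo1) and break down heme (Hmox1). In macrophages the pathway is known for heme handling and for restraining inflammatory gene expression. Several of these genes also respond to other factors, among them BACH1 for Hmox1 and ATF4 for Slc7a11.

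Library totals ran from 30632355 to 38408851 counts. The 10 genes held between 80 counts (Nqo1, control cells in viscous gel) and 74485 counts (Hmox1, control cells in elastic gel) in a library. Each title ends in a number that 1 elastic and 1 viscous library of a genotype share; the lower number of each genotype is called replicate 1 here and the higher replicate 2. What the number marks is not stated, so the spread behind each p-value is that between libraries and may be technical. Both libraries of control replicate 1 stood apart from the other 6 on the first principal component (scores 69.4 and 78.2, against -37.1 to -10.9), and the values without them are given beside the results they move most. A point mutation cannot be checked in gene counts, and monocyte markers were not checked because the IDs carry no names. In bulk RNA, fewer cells of a type and less RNA per cell cannot be told apart.

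**Figure D1:**
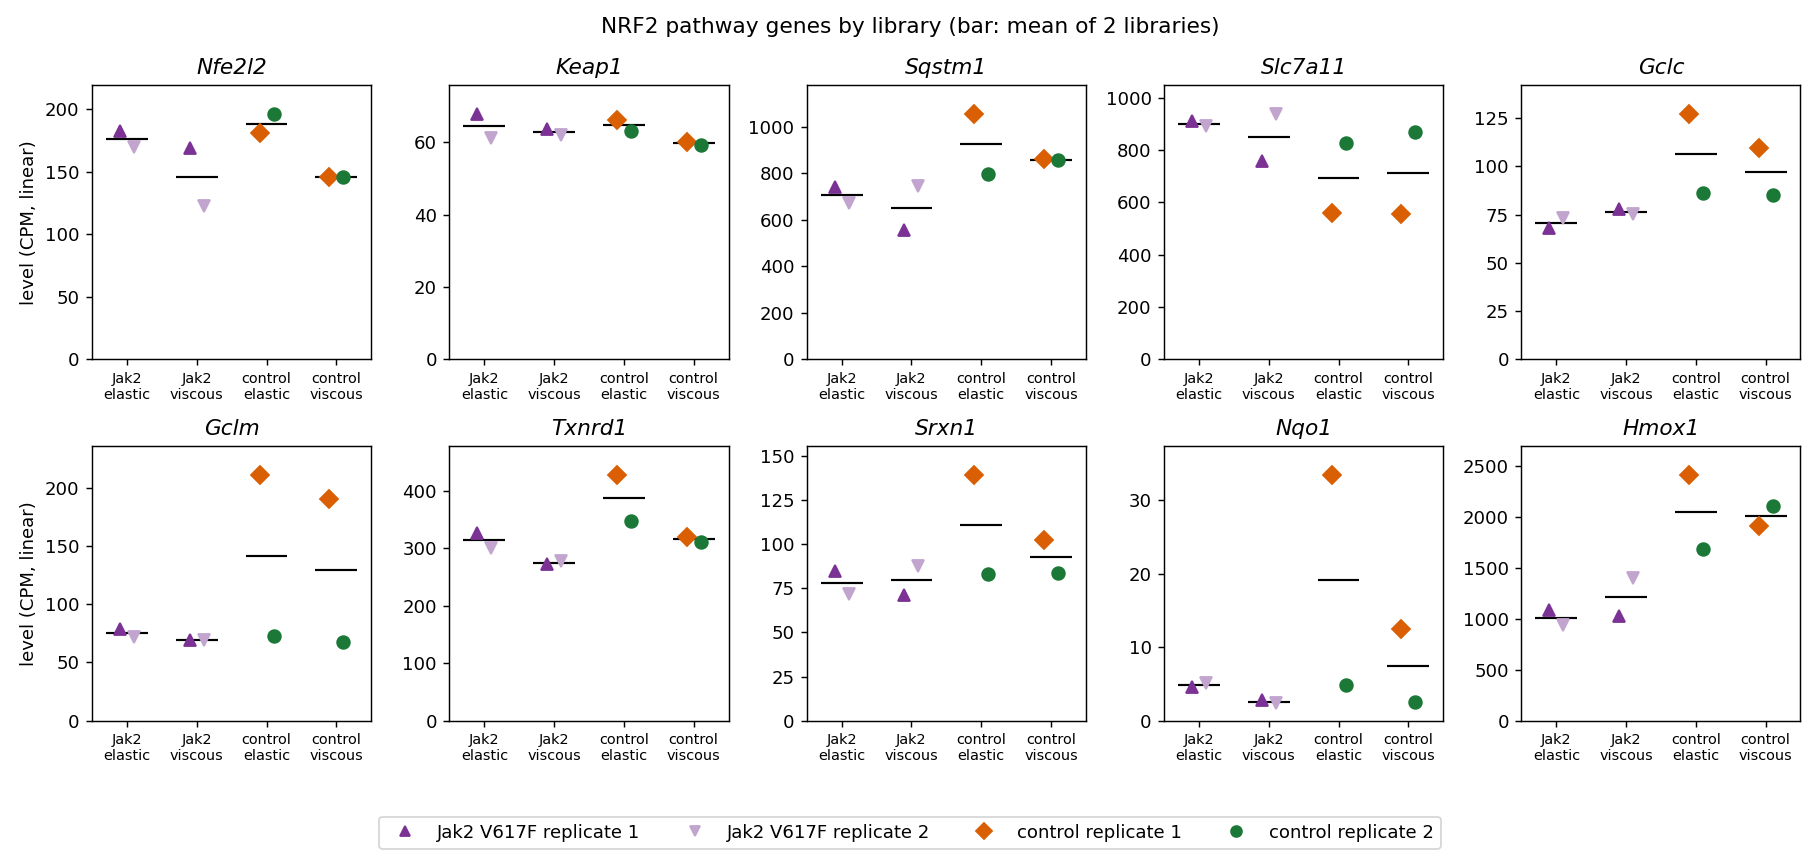
Level of each of the 10 genes in every library, in CPM (counts per 1e+06 of the scaled library total, linear axis from 0), by genotype and gel; points are libraries, marker shape gives the replicate and bars are means of 2 libraries. Hmox1 lies at 937 to 1404 CPM in Jak2 V617F cells, below the 1681 to 2406 CPM of control cells, and the libraries of control replicate 1 lie far above all others for Gclm and Nqo1.

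Jak2 V617F cells were compared with control cells first. Hmox1, the inducible heme oxygenase that breaks heme down to biliverdin, iron and carbon monoxide, was lower in every Jak2 V617F library than in every control library. Sqstm1 and Gclc were also lower without overlap. The transcription factor Nfe2l2 and its inhibitor Keap1 lay at nearly the same level in both genotypes. Nqo1 and Gclm had much lower means in Jak2 V617F cells, and both differences rested on control replicate 1. By edgeR, 0 of the 10 genes passed an adjusted p of 0.05 in either gel or on counts summed over the gels for each replicate, beside 0% of all genes tested in each of these comparisons.

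Hmox1 (ENSMUSG00000005413, chromosome 8, 75093618 to 75100593 in GRCm38) stood at 1084 and 937 CPM in Jak2 V617F cells in elastic gel, and at 2406 and 1681 CPM in control cells in elastic gel. In viscous gel it stood at 1028 and 1404 CPM in Jak2 V617F cells, and at 1906 and 2108 CPM in control cells. The highest Jak2 V617F library was thus below the lowest control library, whichever gel it came from. The mean over both gels was 1113 ± 203 CPM for Jak2 V617F libraries, against 2025 ± 308 CPM for control libraries (SD, n = 4 libraries each). These 4 libraries are 2 replicates, each in both gels, and may not be independent. On summed counts, the log2 fold change was -0.84 (SE 0.20, 95% interval -1.38 to -0.30), or 1.79-fold lower. The edgeR adjusted p was 0.792 (unadjusted 0.0116). Within gels the log2 fold changes were -1.02 (SE 0.27) in elastic and -0.72 (SE 0.27) in viscous gel, with edgeR adjusted p-values of 0.937 and 0.664. DESeq2 placed Hmox1 past the threshold on the sums (adjusted p = 5.4e-04) and in elastic gel (adjusted p = 0.0345), not in viscous gel (adjusted p = 0.273). It was the only 1 of the 10 genes that DESeq2 called in these 3 comparisons, where DESeq2 called 0.322% (sums), 0.122% (elastic) and 0.176% (viscous) of all genes tested as lower, and 0.374%, 0.176% and 0.237% as higher. Without control replicate 1 the Hmox1 difference was of like size, at -0.76 on the sums, -0.74 in elastic and -0.79 in viscous gel. DESeq2 then still called it on the sums (adjusted p = 5.4e-05), where 1 control sum was left, but no longer in elastic gel (adjusted p = 0.251); in viscous gel the adjusted p was 0.0645.

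Among the regulators, Nfe2l2 (ENSMUSG00000015839, chromosome 2, 75675513 to 75704663) ranged over 122, 169 and 182 CPM (lowest, median and highest library) in Jak2 V617F cells and over 146, 164 and 196 CPM in control cells. Keap1 (ENSMUSG00000003308, chromosome 9, 21229730 to 21239332), the adaptor that ties NRF2 to the CUL3 ubiquitin ligase, ranged over 61.1, 62.7 and 67.7 CPM in Jak2 V617F libraries, against 59.3, 61.6 and 66.1 CPM in control libraries. The libraries of both genotypes were fully mixed for either gene. The log2 fold changes on summed counts were -0.049 for Nfe2l2 (95% interval -0.45 to 0.36) and 0.043 for Keap1 (95% interval -0.23 to 0.32).

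Sqstm1 (ENSMUSG00000015837, chromosome 11, 50200152 to 50210820) encodes p62, an autophagy receptor that binds KEAP1 and is itself an NRF2 target. It stood at 741 and 672 CPM in Jak2 V617F and at 1054 and 799.7 CPM in control cells in elastic gel. In viscous gel it stood at 559 and 747 CPM in Jak2 V617F and at 861 and 857 CPM in control cells. All Jak2 V617F libraries lay below all control libraries. The log2 fold change on the sums was -0.38 (SE 0.18), with an edgeR adjusted p of 0.792, and it was -0.39 in elastic gel and -0.40 in viscous gel. Without control replicate 1 it was -0.29 on the sums, -0.18 in elastic gel and -0.39 in viscous gel. The viscous value was -0.20 without the viscous library of Jak2 V617F replicate 1 and -0.62 without that of Jak2 V617F replicate 2.

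Gclc and Gclm encode the catalytic and the modifier subunit of glutamate-cysteine ligase, the rate-limiting enzyme of glutathione synthesis. Gclc (ENSMUSG00000032350, chromosome 9, 77754535 to 77794489) stood at 68.2 and 73.2 CPM in Jak2 V617F and at 127 and 86.3 CPM in control cells in elastic gel. In viscous gel it stood at 77.7 and 75.4 CPM in Jak2 V617F and at 109.6 and 85.0 CPM in control cells, so that the genotypes again did not overlap. The log2 fold change was -0.45 (SE 0.18, edgeR adjusted p = 0.792) on the sums, -0.59 in elastic gel and -0.35 in viscous gel. Without control replicate 1 it was -0.21 on the sums, -0.29 in elastic gel and -0.15 in viscous gel.

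Counted over the list, 0 of 10 genes were higher in all 4 Jak2 V617F libraries than in all 4 control libraries, against 3.5% of all 14785 genes. In the same count 3 of 10 (Sqstm1, Gclc and Hmox1) were lower, against 3.39% of all genes. The 4 libraries of a genotype are 2 replicates, each in both gels, and may not be independent. Without control replicate 1, where 4 libraries face 2, the same 3 genes were lower without overlap, against 12.2% of all genes (11.7% higher). The median log2 fold change of the 10 genes on summed counts was -0.37, with 8 of 10 negative, beside a median of -0.0049 over all genes, of which 50.8% were negative. Leaving out control replicate 1 brought the median of the 10 genes to -0.085. At an unadjusted p under 0.05, edgeR had Hmox1 in viscous gel, Hmox1 and Gclc in elastic gel, and Hmox1 on the sums, all lower; the shares of all genes lower at that level were 3.71% in viscous gel, 2.51% in elastic gel and 2.75% on the sums, and those higher were 3.61%, 1.91% and 2.47%. limma-voom also placed 0 of the 10 past an adjusted p of 0.05.

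**Figure D2:**
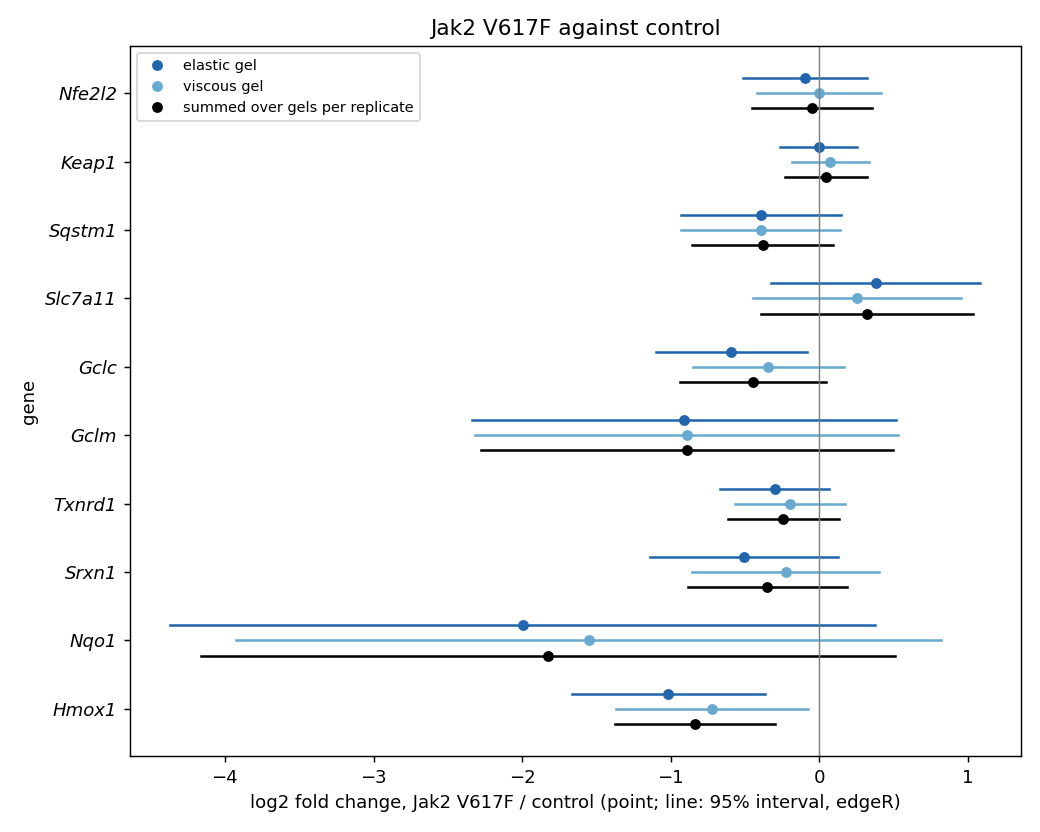
Log2 fold change of each gene in Jak2 V617F against control cells (x axis; points, with 95% intervals from edgeR as lines) in elastic gel, in viscous gel and on counts summed over the gels for each replicate. The Hmox1 intervals lie below 0 in all 3 fits (-1.38 to -0.30 on the sums), whereas those of Gclm and Nqo1 are wide and include 0.

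Gclm and Nqo1 differed between the control replicates more than between the genotypes. Gclm (ENSMUSG00000028124, chromosome 3, 122245487 to 122267215) lay between 69.6 and 78.8 CPM in all 4 Jak2 V617F libraries. In control replicate 1 it stood at 211 CPM in elastic and 191 CPM in viscous gel, and in control replicate 2 at 72.6 CPM in elastic and 67.8 CPM in viscous gel. Control replicate 2 thus lay within the Jak2 V617F range in elastic gel and just below it in viscous gel, whereas control replicate 1 lay above it, at 2.91 times (elastic) and 2.81 times (viscous) the level of control replicate 2. The genotype log2 fold change on the sums was -0.89 (SE 0.51, edgeR adjusted p = 0.795), and 0.046 without control replicate 1. Within gels it was -0.91 in elastic and -0.89 in viscous gel, and 0.054 and 0.039 without control replicate 1.

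Nqo1 (ENSMUSG00000003849, chromosome 8, 107388225 to 107403205), a quinone reductase used widely as a readout of NRF2 activity, showed the same split on a larger scale. It stood at 4.51 and 5.05 CPM in Jak2 V617F cells in elastic gel, against 33.3 CPM (replicate 1) and 4.89 CPM (replicate 2) in control cells in elastic gel. In viscous gel it stood at 2.76 and 2.33 CPM in Jak2 V617F cells, against 12.4 CPM (replicate 1) and 2.49 CPM (replicate 2) in control cells. Control replicate 1 stood at 6.82 times (elastic) and 5.00 times (viscous) the level of control replicate 2. These are low levels: the 80 counts behind the 2.49 CPM have an exact Poisson 95% interval of 63.4 to 99.6 counts and the 1032 counts behind the 33.3 CPM one of 969.99 to 1097 counts, which cover counting error only. The genotype log2 fold change on the sums was -1.82 (SE 0.87, edgeR adjusted p = 0.792), and -0.034 without control replicate 1. Within gels Nqo1 was 3.99-fold lower in elastic and 2.93-fold lower in viscous gel, and the log2 fold changes without control replicate 1 were -0.033 and 0.033.

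Slc7a11 (ENSMUSG00000027737, chromosome 3, 50364936 to 50499087), the transporter subunit that exchanges glutamate for cystine, ran the other way. It stood at 909.9 and 891 CPM in Jak2 V617F and at 559 (replicate 1) and 827 CPM (replicate 2) in control cells in elastic gel. In viscous gel it stood at 759.8 and 936 CPM in Jak2 V617F and at 556 (replicate 1) and 868 CPM (replicate 2) in control cells. The libraries of control replicate 1 were the lowest of all 8, and those of control replicate 2 lay within the range of the 4 Jak2 V617F libraries. The log2 fold change on the sums was 0.32 (SE 0.26, edgeR adjusted p = 0.820), and 0.045 without control replicate 1.

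Txnrd1 (ENSMUSG00000020250, chromosome 10, 82833951 to 82897724), which encodes the cytosolic thioredoxin reductase, ranged over 272, 289 and 326 CPM (lowest, median and highest) in Jak2 V617F and over 311, 333 and 426 CPM in control cells. Srxn1 (ENSMUSG00000032802, chromosome 2, 152105524 to 152111376), whose product sulfiredoxin restores overoxidised peroxiredoxins, ranged over 71.4, 78.3 and 87.6 CPM in Jak2 V617F and over 83.3, 93.1 and 139 CPM in control cells. For both genes the genotypes overlapped at their edges, and the highest library was control replicate 1 in elastic gel. Their log2 fold changes on the sums were -0.24 (SE 0.14) and -0.35 (SE 0.20), both with an edgeR adjusted p of 0.795, and -0.16 and -0.077 without control replicate 1. When control replicate 2 was left out instead, so that replicate 1 alone stood for control cells on the sums, edgeR placed 6 of the 10 genes past the threshold (Slc7a11 higher; Gclc, Gclm, Srxn1, Nqo1 and Hmox1 lower), beside 2664 of 16004 genes tested (16.6%). In that fit the spread came from the 2 Jak2 V617F sums alone, and the single control sum was assumed to vary like them.

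**Figure D3:**
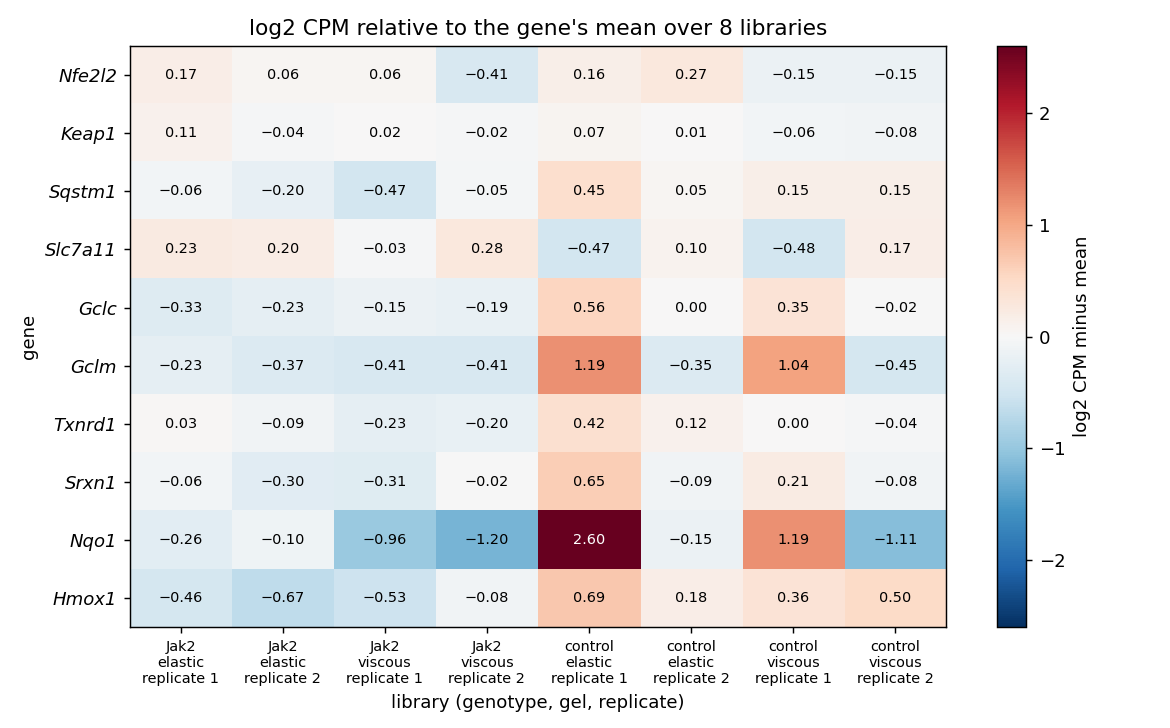
Heat map of log2 CPM minus the gene's mean over the 8 libraries (colour and printed value; red is above the mean, blue below), with genes in rows and libraries in columns. In control replicate 1 in elastic gel Nqo1 is 2.60 above and Slc7a11 0.47 below its mean; Hmox1 is below its mean in all 4 Jak2 V617F libraries.

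The spread between replicates was gene-specific within the list. The library of control replicate 1 in elastic gel held the highest level of all 8 libraries for 7 of the 10 genes (Sqstm1, Gclc, Gclm, Txnrd1, Srxn1, Nqo1 and Hmox1) and for 19.2% of all genes. Between control replicates 1 and 2 in elastic gel, the absolute log2 difference of Nqo1 (2.75) exceeded that of 97.5% of all genes, and that of Gclm (1.54) exceeded 90.8%. In viscous gel the corresponding shares were 95.8% for Nqo1 (2.29) and 90.5% for Gclm (1.49). In the same libraries Keap1 differed by 0.064 in elastic and 0.018 in viscous gel, and Nfe2l2 by -0.12 and -0.0018, differences exceeded by most genes. The median absolute difference of the 10 genes was 0.54 in elastic and 0.22 in viscous gel, beside 0.35 in each gel for all genes. Hmox1 took different directions: control replicate 1 stood at 1.43 times the level of replicate 2 in elastic gel and at 0.90 times that level in viscous gel. Between the Jak2 V617F replicates, Gclm differed by 0.13 in elastic gel and by 2.5e-05 in viscous gel, and Nqo1 by -0.16 and 0.24.

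**Figure D4:**
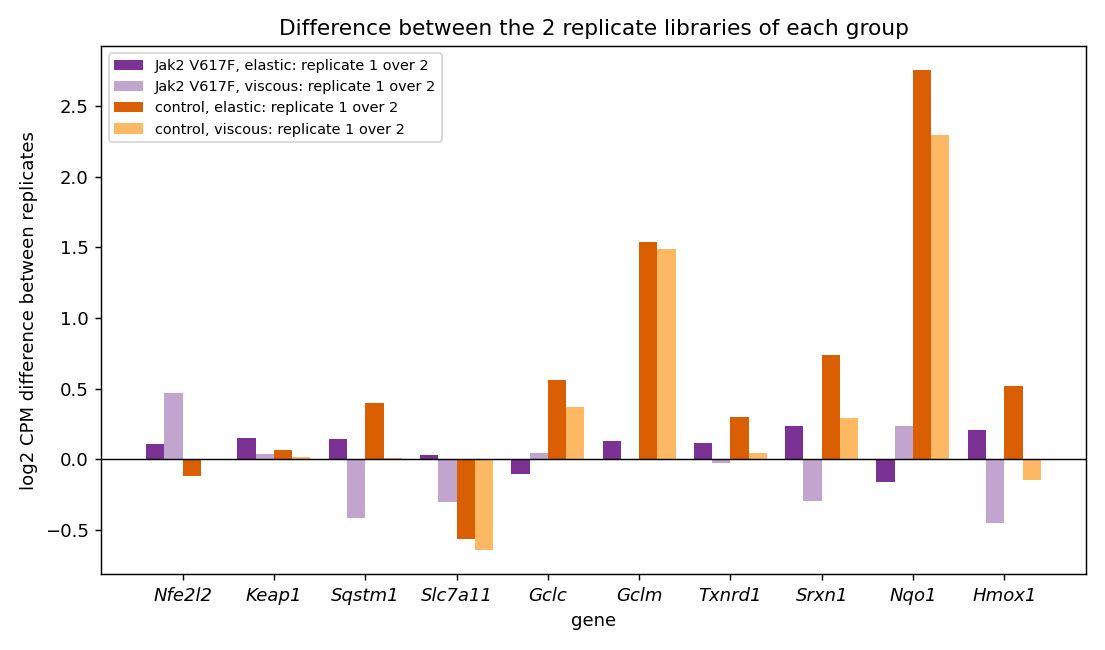
Difference in log2 CPM between the 2 replicate libraries of each group (y axis), by gene: replicate 1 minus replicate 2, for Jak2 V617F and control cells in each gel. The control bars reach 2.75 and 2.29 for Nqo1 and 1.54 and 1.49 for Gclm and lie below 0 for Slc7a11, while those of Keap1 are 0.064 and 0.018.

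Elastic gel was then compared with viscous gel. Nfe2l2 was higher in all 4 elastic libraries than in all 4 viscous libraries, by 1.25-fold on average. Nqo1 had the largest fold difference of the list, 2.19-fold higher in elastic gel, and Txnrd1 was 1.18-fold higher. Keap1 was 1.05 times and Hmox1 0.92 times its viscous level. By edgeR none of the 10 passed an adjusted p of 0.05 in either genotype or in their average, beside 0% of all genes; limma-voom and DESeq2 also called 0 of the 10, where DESeq2 called 0.453% of all genes higher and 0.453% lower in the average, 0.135% and 0.101% in Jak2 V617F cells, and 0.156% and 0.0812% in control cells.

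Nfe2l2 stood at 182 and 169.4 CPM in elastic and at 169.2 and 122 CPM in viscous gel in Jak2 V617F cells, and at 181 and 196 CPM in elastic and 146.0 and 146.2 CPM in viscous gel in control cells. The sets of 4 libraries did not overlap, but the closest pair, both Jak2 V617F, were only 169.4 and 169.2 CPM. The log2 fold change averaged over genotypes was 0.32 (SE 0.12, 95% interval 0.02 to 0.61), with an edgeR adjusted p of 0.768 (unadjusted 0.0381). It was 0.27 (SE 0.17) in Jak2 V617F and 0.37 (SE 0.17) in control cells. The Jak2 V617F value was 0.52 without the viscous library of replicate 1 and 0.056 without that of replicate 2. Of all genes, 24.6% had a larger absolute log2 fold change in the average. Nfe2l2 was the only 1 of the 10 that was higher without overlap, against 2.07% of all genes, and 0 were lower, against 1.66%. It was also the only 1 at an unadjusted p under 0.05, where 2.9% of all genes were higher and 3.38% lower. Within the genotypes 0 of the 10 genes had an unadjusted p under 0.05, beside 1.31% of all genes higher and 1.77% lower in Jak2 V617F cells, and 2.31% higher and 2.54% lower in control cells. With control replicate 1 left out, Nfe2l2, Gclm and Nqo1 were higher without overlap, against 7.6% of all genes, and 0 were lower, against 7.05%.

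Nqo1 had a higher mean in elastic gel in both genotypes, at 4.78 ± 0.38 CPM in elastic and 2.54 ± 0.30 CPM in viscous gel in Jak2 V617F cells, and 19.1 ± 20.1 CPM in elastic and 7.46 ± 7.04 CPM in viscous gel in control cells (SD, n = 2 in each group). In Jak2 V617F cells the gels did not overlap; in control cells they did, because replicate 1 in viscous gel (12.4 CPM) lay above replicate 2 in elastic gel (4.89 CPM). The log2 fold change was 1.13 (SE 0.69, 95% interval -0.52 to 2.78, edgeR adjusted p = 0.906) in the average, 0.91 (SE 0.98) in Jak2 V617F and 1.35 (SE 0.97) in control cells. Only 3.9% of all genes had a larger absolute log2 fold change in the average. With control replicate 1 left out the values were 0.94 in the average (edgeR adjusted p = 0.223), 0.91 in Jak2 V617F and 0.98 in control cells. With only the elastic library of control replicate 1 left out, the value for Nqo1 was 0.15 in the average and -0.61 in control cells, since replicate 1 then entered in viscous gel alone; with only its viscous library left out, the average was 1.92.

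Txnrd1 ranged over 301, 336 and 426 CPM in elastic gel and over 272, 294 and 320.0 CPM in viscous gel, which overlap, with a log2 fold change of 0.24 (SE 0.11, 95% interval -0.02 to 0.50, edgeR adjusted p = 0.819) in the average. Keap1 ranged over 61.1, 64.6 and 67.7 CPM in elastic and 59.3, 61.0 and 63.6 CPM in viscous gel, a log2 fold change of 0.08 (95% interval -0.11 to 0.26). Hmox1 ranged over 937, 1382 and 2406 CPM in elastic and 1028, 1655 and 2108 CPM in viscous gel, a log2 fold change of -0.12 (95% interval -0.58 to 0.34) in the average. The fold changes of the other 5 genes (Sqstm1, Slc7a11, Gclc, Gclm and Srxn1) lay between those of Hmox1 and Txnrd1. The median log2 fold change of the 10 genes was 0.11, with 9 of 10 positive, beside -0.0043 over all genes, of which 51.0% were negative. The median of the 10 genes was 0.037 without control replicate 1. With 1 library left out it lay between 0.035 (without control replicate 1 in elastic gel) and 0.24 (without control replicate 2 in elastic gel).

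**Figure D5:**
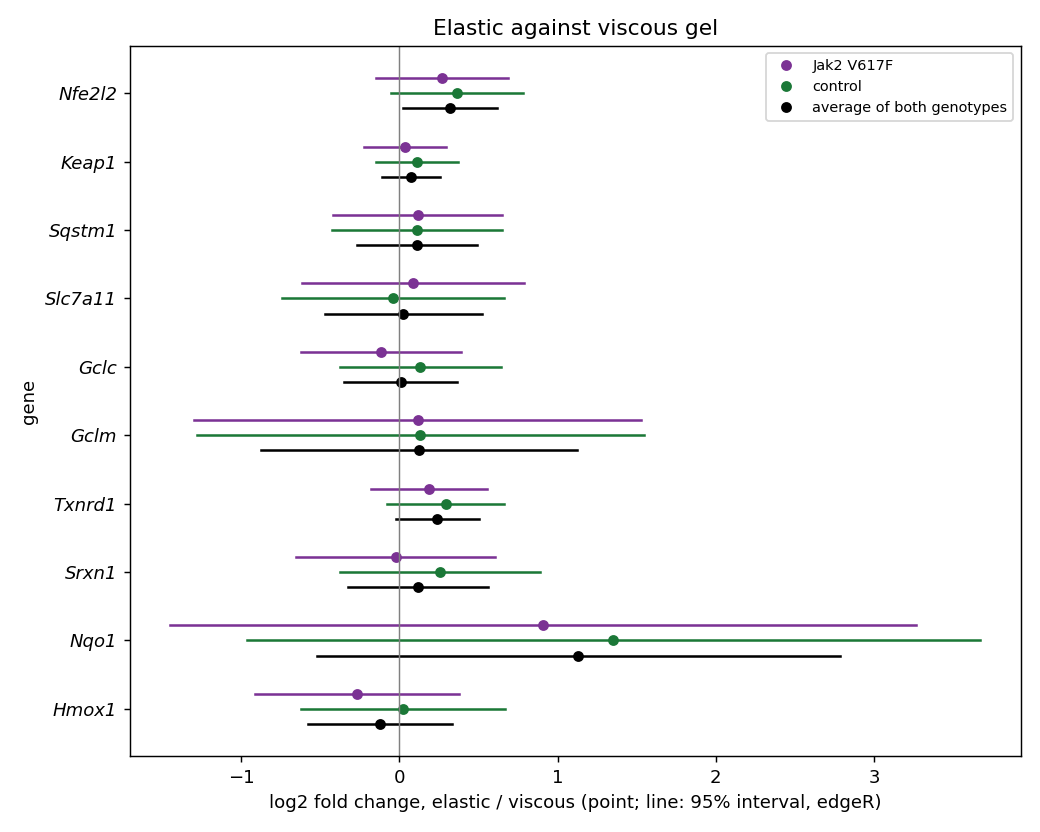
Log2 fold change of each gene in elastic against viscous gel (x axis; points, with 95% intervals from edgeR as lines) in Jak2 V617F cells, in control cells and averaged over both. Only the averaged interval of Nfe2l2 (0.02 to 0.61) lies above 0; that of Nqo1 (-0.52 to 2.78) is the widest of the averages.

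Whether gel effects differ with the mutation was tested by subtracting the log2 fold change for gel in control cells from its counterpart in Jak2 V617F cells. For Nfe2l2 this gave -0.10 (SE 0.25, 95% interval -0.69 to 0.49). The value of -0.44 for Nqo1 had an SE of 1.37 and a 95% interval of -3.72 to 2.83, which is wide enough to hold large differences of either sign. Over the 10 genes these differences ran from -0.44 to 0.13 with a median of -0.10, beside -0.029 over all genes. The median of the 10 genes was -0.0025 without control replicate 1, and ran from -0.37 (without control replicate 2 in elastic gel) to 0.052 (without control replicate 1 in elastic gel) with 1 library left out. By edgeR 0 of the 10 passed an adjusted p of 0.05 and 0 an unadjusted p of 0.05, beside 0% of all genes at the adjusted level, and 1.05% higher and 0.67% lower at the unadjusted level. DESeq2 and limma-voom called 0 of the 10, where DESeq2 called 0.0135% of all genes.

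Ordered by group mean, the genes differed in which groups came first. Sqstm1, Gclc and Hmox1 had both control groups above both Jak2 V617F groups, with a gap between the libraries of the genotypes. Nfe2l2 had both elastic groups above both viscous groups, at 176 ± 9.17 CPM in elastic and 146 ± 33.0 CPM in viscous gel in Jak2 V617F cells, and at 188 ± 10.6 CPM in elastic and 146 ± 0.13 CPM in viscous gel in control cells (SD, n = 2). Gclm, Txnrd1, Srxn1 and Nqo1 had control cells in elastic gel highest and control cells in viscous gel next. For these 4 genes, control cells in viscous gel overlapped with the Jak2 V617F group below them. Jak2 V617F cells in elastic gel lay above those in viscous gel without overlap for Gclm, Txnrd1 and Nqo1. Slc7a11 had both Jak2 V617F groups above both control groups, with overlap between neighbours in the order. Keap1 had both elastic groups above both viscous groups by mean, but its elastic and viscous libraries overlapped. As a share of all counts the 10 genes held 0.348% and 0.325% in Jak2 V617F cells in elastic gel and 0.316% and 0.369% in Jak2 V617F cells in viscous gel. The shares in control cells were 0.526% (replicate 1) and 0.404% (replicate 2) in elastic and 0.448% (replicate 1) and 0.452% (replicate 2) in viscous gel. All 4 Jak2 V617F libraries thus lay below all 4 control libraries in this share, which is made up mostly of Hmox1, Sqstm1 and Slc7a11 counts. Hmox1, itself lower without overlap, held the most counts of the 10 genes in every library, whereas Slc7a11 ran the other way. The share is therefore weighted towards Hmox1 and does not describe the list as a whole. In elastic gel, Jak2 V617F replicate 1 held 121829 counts of the 10 genes, 37216 of them Hmox1, in a total of 35007587. Control replicate 2 in elastic gel held 133566 counts of the 10 genes, 53967 of them Hmox1, in a total of 33047053. With Hmox1 taken out, the share of this Jak2 V617F library was just above that of this control library, so the genotypes overlapped.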

How the data were processed

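RNA-seq counts of 8 libraries were used. The deposited files hold unnormalized counts in whole numbers, 1 row for each Ensembl ID. The submitters' processing notes name GRCm38, Salmon and DESeq2, without versions or order; the use of strand was not given in the labels. All 8 per-library files equalled the series table, whose smallest sum of an ID over libraries was 10. Salmon splits shared reads by estimation, so counts of overlapping or near-identical genes are uncertain. Gene symbols came with the list of IDs; coordinates were matched by symbol (10 of 10) in a RefSeq table of GRCm38, which pairs 0 of its genes with Ensembl IDs. The other pathway and marker lists could therefore not be matched and were not tested, and no sequences were used.

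Counts were filtered (filterByExpr), scaled by TMM and fitted with edgeR 4.0.16 (quasi-likelihood, 4 group means, 8 libraries) in R 4.3.3; genotype was also tested on counts summed over gels for each replicate (15239 genes tested). Tests were two-sided, with Benjamini-Hochberg adjustment over all genes and a threshold of 0.05. CPM are counts per 1e+06 of the TMM-scaled total, with a prior count of 2 on the log2 scale. Intervals (95%) were taken from the edgeR fit's t quantiles. Alternatives were DESeq2 1.42.0, limma 3.58.1 (voom), other scaling and filters, libraries left out and the replicate as a block. On all 8 libraries, DESeq2 gave no adjusted p for 860 genes for gel in control cells and 287 for genotype in elastic gel. Without control replicate 1 it gave none for up to 1749 of 15033 genes (gel in control cells). Such genes stay in the number tested and count as not called in the DESeq2 counts and shares. The methods were run on simulated data with 200 changed genes, where only the size of the recovered fold changes had to pass a limit. The simulated libraries held no replicate effect, so that check does not cover the split between the control replicates. Replicate libraries were not duplicates: their chi-square divided by its degrees of freedom was 19.1 to 262. All 10 genes are named by rule; members and lists were chosen with earlier results of these data known. Which members' fold changes are given singly in each comparison was decided after their values were seen.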

Additional observations from a re-analysis of the deposited data

How the results depend on the processing

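Leaving out both libraries of control replicate 1 under DESeq2, and the counts without overlap under other settings, were chosen after the data were seen. Over all 10 genes and 7 comparisons, 89 of 1090 alternative log2 fold changes changed sign, 65 of them with control libraries or sums left out; the cause was not tested, and none of the values was past the edgeR threshold to begin with. Of the 447 alternatives to values given above, 19 changed sign and 9 newly passed the threshold. Without control replicate 1, Gclm was 0.039 (edgeR) and 0.043 (DESeq2) in viscous 0.054 and 0.060 in elastic gel and 0.046 and 0.042 on the sums for genotype, and Nqo1 was 0.033 and 0.039 in viscous gel. With 1 library or sum left out, the genotype values ranged from -1.45 to 0.039 for Gclm and from -2.28 to 0.034 for Nqo1 in viscous gel, and from -1.48 to 0.054 for Gclm in elastic gel. On the sums they ranged from -1.45 to 0.046 for Gclm, from -0.0073 to 0.097 for Keap1 and from -0.20 to 0.093 for Nfe2l2. Gel values ranged from -0.26 to 0.0019 for Hmox1 in the average and from -0.61 to 2.94 for Nqo1 in control cells, and their differences from -0.31 to 0.15 for Nfe2l2 and from -2.03 to 1.52 for Nqo1.

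The number of the 10 genes past the threshold was 1 (Hmox1) under DESeq2 for genotype in elastic gel and on the sums (there also without control replicate 1), and 0 to 6 with 1 sum left out. Without control replicate 1, 3 of them were higher in elastic gel without overlap. Over all genes DESeq2 called 134 for gel in the average, 35 in Jak2 V617F, 35 in control cells, 2 for their difference, 61 for genotype in viscous and 44 in elastic gel, and 106 on the sums; without control replicate 1 it called 345, 189, 104, 8, 170, 58 and 205 in the same order. For gel in the average edgeR called 1 with no filter, 1 with a filter of 50 counts and 2 without control replicate 1 (1 in Jak2 V617F cells). For genotype it called 2 as an average of the 8 libraries, and between 0 and 2664 when a sum was dropped. Scaling shifted the median of all genes by 0.0095 or less.

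As a fixed replicate block in edgeR, the number in the titles gave 5 calls over all genes for gel in the average and 0 of the 10 genes, with Nqo1 at 1.06 (adjusted p = 0.0995) and Nfe2l2 at 0.33 (adjusted p = 0.288). As a random replicate block (limma-voom, correlation 0.38) it gave 2 calls over all genes in the average, 1 in control cells, and 0 of the 10 genes. Deviations of same-numbered libraries correlated at -0.089 in Jak2 V617F and 0.53 in control cells over all genes. Over the 10 genes the correlations were -0.48 and 0.97. Same-numbered libraries thus deviated alike in control cells but not in Jak2 V617F cells. The labels state no pairing, and the main gel fits carry no block. If the number marks an animal, the block fits would be the fitting ones for the gel comparisons. Numbers do not cross genotypes, so genotype had no such fit.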

Other observations

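When the elastic library was set against the viscous library of the same title number, 4 of the 10 genes (Nfe2l2, Gclm, Txnrd1 and Nqo1) were higher in elastic gel for all 4 numbers, and 0 were lower for all 4. Over all 14785 genes these shares were 10.7% and 10.9%. For Nqo1 the elastic level was 1.64 times (replicate 1) and 2.17 times (replicate 2) the viscous level in Jak2 V617F cells, and 2.68 times (replicate 1) and 1.96 times (replicate 2) in control cells. For Nfe2l2 the ratios, in the same order, were 1.08 and 1.38 in Jak2 V617F and 1.24 and 1.34 in control cells. For Txnrd1 they were 1.20 and 1.08 in Jak2 V617F and 1.33 and 1.11 in control cells, and for Gclm 1.13 and 1.03 in Jak2 V617F and 1.11 and 1.07 in control cells. The labels do not state what a number marks, and these ratios were looked at after the values were seen; no test of them was made beside the block fits given above.

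The remaining genes did not share this order: Keap1 was higher in elastic gel for 3 numbers, and Sqstm1, Slc7a11, Gclc, Srxn1 and Hmox1 for 2. For Hmox1 the elastic to viscous ratios were 1.05 and 0.67 in Jak2 V617F and 1.26 and 0.80 in control cells.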
